A study of Rattus norvegicus with 24 samples.

Results

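Heterotrimeric G protein subunits and the regulator of G protein signalling (RGS) proteins were followed in the dentate gyrus of young and aged rats. Genes were taken by symbol from the platform annotation: the alpha subunits (Gna), beta subunits (Gnb), gamma subunits (Gng) and RGS proteins (Rgs). On the array, 49 such genes had a probe set with 1 symbol. A gene was counted as measured when a probe set exceeded a log2 level of 4 on at least 6 of 21 arrays, and 32 of the 49 were, out of 8737 measured genes in all. The 32 comprise 20 of 31 genes with a Gna, Gnb or Gng symbol and 12 of 18 with an Rgs symbol. The last include Rgs7bp, which encodes a binding partner of RGS proteins rather than an RGS protein. The 31 include Gnb1l, which was taken by its symbol and is not counted among the beta subunits below. Each gene is represented by its probe set with the highest mean.

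A heterotrimeric G protein joins an alpha subunit, which binds guanine nucleotides, to a beta and gamma pair. An activated receptor makes the alpha subunit exchange GDP for GTP, and both the alpha subunit and the freed pair then act on effectors such as adenylate cyclases, phospholipases and potassium channels. RGS proteins speed up GTP hydrolysis by the alpha subunit and so shorten the signal. In dentate granule neurons this machinery carries the responses to metabotropic glutamate, GABA, adenosine, opioid, acetylcholine and monoamine receptors.

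Male Long-Evans rats gave RNA from the dentate gyrus, dissected out of the hippocampus, which was hybridized to Affymetrix rat expression arrays. The Young group held 8 rats of 6 months. The Aged Unimpaired group held 6 rats and the Aged Impaired group 7 rats, all of 24 to 26 months; a learning score in the Morris water maze separated the aged groups, with unimpaired rats scoring as young rats did and impaired rats scoring worse. None of the rats was treated, all were housed singly with free access to food and water, and tissue was taken after behavioural testing had ended. The labels give 1 rat per array. The impaired group is therefore defined by 1 behavioural index, and age cannot be told apart from anything else that differs between rats of these ages.

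Cyclic AMP, made by adenylate cyclase under control of the stimulatory and inhibitory alpha subunits, acts on transcription through the cyclic AMP response element, and the promoters of the family were searched for its letters. In RefSeq promoters of the GRCr8 assembly, which run from 250 bases before to 50 bases after a gene's start, 29 of the 32 genes had an entry, with 31 promoters in all because Gnas has 3. The full element, searched as TGACGTCA, lay in 1 of the 31 promoters (3.226%) and in 1.829% of 33465 promoters in the table. The core of the element, searched as TGACG on both strands and so also found inside the full element, lay in 9 of the 31 (29.03%) against 21.21% of all. The 9 belong to Gnao1, Gnaq, Gnas, Gnb2, Gnb5, Gng5, Rgs2, Rgs3 and Rgs4. Windows around these letters are shown for Gnao1, which has the full element, and for Rgs2 and Rgs4, RGS genes known to respond quickly to neuronal stimulation. The sequences read 5′ to 3′ on the gene's strand, which is the minus strand for all 3. Capitals mark the matched letters, and CGTCA is the core read on the opposite strand.
Gnao1: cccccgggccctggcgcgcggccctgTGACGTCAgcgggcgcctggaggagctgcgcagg
Rgs2: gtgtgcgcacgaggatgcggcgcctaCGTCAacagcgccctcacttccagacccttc
Rgs4: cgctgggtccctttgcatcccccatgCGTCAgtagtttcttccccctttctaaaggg
The windows lie at chr19:11198525-11198584, chr13:58352852-58352908 and chr13:84476007-84476063, and the matches begin 121, 216 and 153 bases before the gene start. A match describes letters in these windows and is not evidence of binding. The 31 promoters had a median of 63.67% G and C and 21 CpG dinucleotides, against 51.67% and 7 over all promoters in the table. The letters TATAAA, searched on both strands and anywhere in the promoter, lay in 4 of them (12.9% against 14.22%).

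The arrays were alike in overall signal. The median log2 level of an array was 3.77 to 3.84, 48.3% to 48.8% of probe sets exceeded a level of 4, and arrays of the same group correlated at 0.988 to 0.994 across probe sets. Markers of granule neurons were high on each array: the mean of the 7 measured markers lay between 9.84 and 10.40. The mean of 8 astrocyte markers overlapped between groups. It ran from 11.37 to 11.56 in young, 11.33 to 11.55 in unimpaired and 11.29 to 11.72 in impaired rats. The means of several other marker lists differed in range or median between groups, and these differences were not tested. The mean of 7 measured oligodendrocyte markers lay between 10.35 and 10.66 in young, 9.97 and 10.31 in unimpaired and 10.13 and 10.65 in impaired rats, so that no unimpaired array reached the young range. The mean of 9 measured markers of hippocampal pyramidal neurons had a median of 7.20 in young, 6.91 in unimpaired and 7.09 in impaired rats. The 3 of 8 immature neuron markers that were measured (Neurod1, Sox4 and Tubb2b, with Dcx below the filter) had a mean between 9.51 and 9.97 in young rats, above the 9.16 to 9.43 of unimpaired and the 9.18 to 9.47 of impaired rats. The mean of 8 endothelial markers lay between 6.95 and 7.20 in young, 6.78 and 6.95 in unimpaired and 6.90 and 7.26 in impaired rats. Markers of oligodendrocyte precursors (3 measured) had medians of 8.85, 8.54 and 8.78 in young, unimpaired and impaired rats, and GABAergic interneuron markers (7 measured) 8.05, 7.96 and 8.21. The mean of the 3 measured meningeal markers, of 14 listed, stood apart at 9.12, 8.95 and 8.16 in Impaired 2, 3 and 7, against 6.73 to 7.50 on the other arrays, of which Young 5 was the highest. Without these 4 arrays 0 members were called in each contrast. The mean of 2 measured choroid plexus markers was 9.93 in Young 2, 9.65 in Impaired 7, 9.04 in Unimpaired 3 and 7.87 in Impaired 3. On the other arrays it lay between 5.98 and 6.93. Young 2 and Unimpaired 3 were not among the 4 arrays left out. The part of these marker differences in the values below was not tested. In tissue RNA of this kind, fewer cells of a type and less RNA per cell cannot be told apart.

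The first question is whether any of the 32 genes differed between the groups. None was called in limma, with p values adjusted by the Benjamini and Hochberg method over all 15177 probe sets tested and a call at an adjusted p below 0.05. In impaired minus young rats 0 of 32 were called, against 0.514% of all probe sets, and in unimpaired minus young rats 0 of 32, against 1.13%. In impaired minus unimpaired rats 0 of 32 were called, where 0% of all probe sets were. With both aged groups set against young rats 0 of 32 were called, against 1.11% of all probe sets. The moderated F test over the 3 groups called 0 of 32, against 0.896%, with 4 members at an unadjusted p below 0.05, against 18.8%. Calls were few over the whole array, and a count of 0 among 32 genes is near that background. The background itself rests on single arrays: with 1 array left out, the 78 calls in impaired minus young became 36 to 161, the 172 in unimpaired minus young 59 to 219 and the 168 in all aged minus young 89 to 239.

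At an unadjusted p below 0.05 the members numbered 1 in impaired minus young (3.12%), 5 in unimpaired minus young (15.6%), 4 in impaired minus unimpaired (12.5%) and 3 when all aged rats were set against young (9.38%). The same shares over all probe sets were 12.4%, 17%, 14.5% and 14.6%. The smallest adjusted p values of a member were 0.293, 0.0935, 0.228 and 0.123 in these contrasts. The median difference of the 32 genes was -0.017 in impaired and -0.045 in unimpaired rats against young, beside 0.010 and -0.039 over all probe sets. Negative differences were found for 18 and 22 of the 32, against 44.8% and 66% of all probe sets. When arrays were quantile normalized, the unimpaired median turned to 0.016 with 14 negative genes, so the direction of the family as a whole depends on scaling.

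The 95% confidence intervals bound how large a difference in probe set level these arrays could have missed. The whole interval lay within a log2 difference of 0.5 either way for 29 of the 32 genes in impaired minus young, 29 in unimpaired minus young and 30 in impaired minus unimpaired. It lay within 0.3 for 27, 23 and 23 genes. These include Gnaq, Gng8, Rgs3 and Rgs9, at mean levels from 4.31 to 6.39. Each had at least 16 of 21 arrays within 0.05 of its median. Whether their narrow intervals reflect a steady transcript or a signal that responds little was not tested. The genes whose interval passed 0.5 in any of these contrasts were those with the most scattered values, Rgs4, Rgs5 and Rgs7bp. In unimpaired minus young the intervals of Gng12, Gnai1, Rgs14, Gng2, Rgs17 and Gnal also passed 0.3. The 8 young arrays serve in both comparisons with young rats, so their values are given side by side and not counted as independent.

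**Figure D1:**
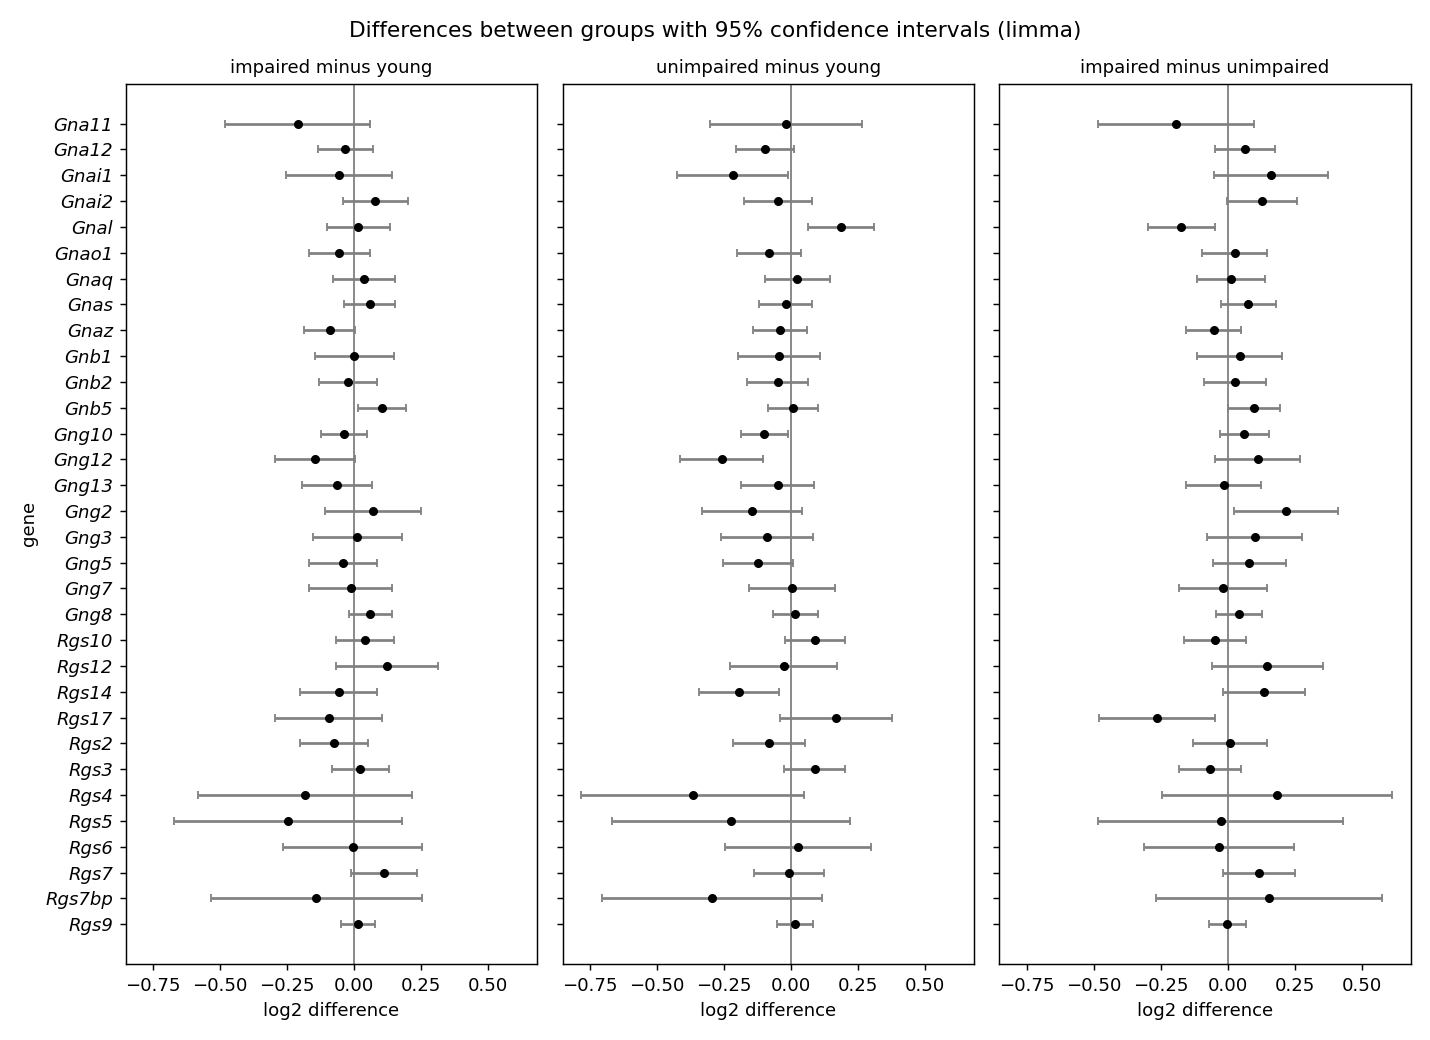
Log2 differences (horizontal axes) of the 32 measured genes (vertical axis) between groups of 8 Young, 6 Aged Unimpaired and 7 Aged Impaired rats, with points for the difference and bars for the 95% confidence interval from limma. Most intervals cross 0, none of the differences passed at an adjusted p below 0.05, and the widest intervals belong to Rgs4, Rgs5 and Rgs7bp.

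The stimulatory alpha subunits are encoded by Gnas, which activates adenylate cyclase in most cells, and Gnal, its relative of the striatum and olfactory epithelium. Gnas levels (lowest, median, highest) were 13.38, 13.45 and 13.56 in young, 13.25, 13.46 and 13.51 in unimpaired and 13.32, 13.55 and 13.61 in impaired rats. The ranges overlapped in all groups, and the difference of impaired from young rats was 0.06 ± 0.05 (SE). Gnal levels were 8.50, 8.65 and 8.77 in young, 8.66, 8.87 and 8.95 in unimpaired and 8.50, 8.68 and 8.81 in impaired rats. The 3 highest Gnal values of all came from unimpaired rats. The Gnal difference was 0.19 ± 0.06 in unimpaired minus young (limma adjusted p = 0.116), above the young mean in 6 of 6 arrays, and -0.17 ± 0.06 in impaired minus unimpaired (limma adjusted p = 0.228). Neither passed. The other measured Gnal probe set gave -0.05 ± 0.11 and 0.08 ± 0.11, opposite in sign in both.

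Inhibitory alpha subunits lower cyclic AMP and release beta and gamma pairs onto channels. Counted with the related Gnat1, Gnat2 and Gnat3, their class held 7 genes, of which 4 were measured. The Gnat genes were those not measured. Gnai1 had levels of 8.26, 8.45 and 8.70 in young, 7.91, 8.30 and 8.40 in unimpaired and 8.16, 8.34 and 8.74 in impaired rats. Its difference in unimpaired minus young was -0.22 ± 0.10 (limma adjusted p = 0.273), and the ranges overlapped. Gnai2, the most widely expressed of this class, had levels of 10.30, 10.43 and 10.55 in young, 10.29, 10.39 and 10.48 in unimpaired and 10.25, 10.51 and 10.72 in impaired rats, a difference of 0.13 ± 0.06 in impaired minus unimpaired (limma adjusted p = 0.351). Gnao1, the abundant alpha subunit of neurons, averaged 9.68 ± 0.14 (SD, n = 8), 9.60 ± 0.06 (n = 6) and 9.62 ± 0.08 (n = 7) in young, unimpaired and impaired rats. Gnaz, a pertussis toxin resistant member, averaged 9.07 ± 0.08, 9.03 ± 0.03 and 8.98 ± 0.11. Its difference in impaired minus young was -0.09 ± 0.05 (limma adjusted p = 0.440). In the unimpaired rats all 4 genes lay below the young mean, between -0.22 and -0.04, and none passed. With quantile normalization 2 of the 4 lay below it.

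Gnaq and Gna11 encode the alpha subunits that activate phospholipase C beta. Gnaq averaged 5.29 ± 0.09 (SD) in young, 5.32 ± 0.01 in unimpaired and 5.33 ± 0.16 in impaired rats, and Gna11 6.41 ± 0.29, 6.39 ± 0.29 and 6.20 ± 0.21. The lowest, median and highest Gna11 levels were 5.93, 6.48 and 6.78 in young and 6.00, 6.16 and 6.60 in impaired rats, so that the ranges overlapped over most of their length. The Gna11 difference of -0.21 ± 0.13 (SE) in impaired minus young had a limma adjusted p of 0.550. Gna12 averaged 10.67 ± 0.08 (SD), 10.58 ± 0.08 and 10.64 ± 0.11. Its difference of -0.10 ± 0.05 in unimpaired minus young (limma adjusted p = 0.350) had the opposite sign in its other probe set, at 0.02 ± 0.12.

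**Figure D2:**
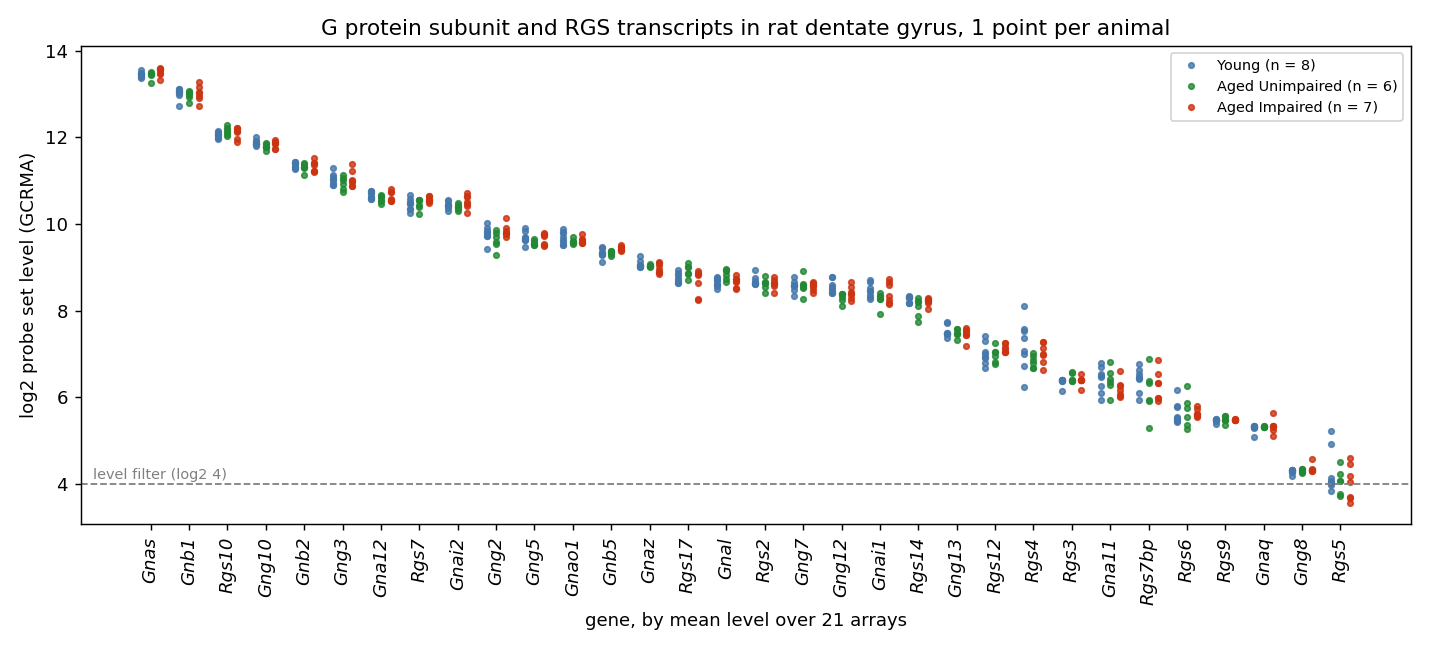
Log2 probe set level (vertical axis) of the 32 measured genes (horizontal axis, by mean over 21 arrays), 1 point per animal, for 8 Young, 6 Aged Unimpaired and 7 Aged Impaired rats, with the level filter of 4 dashed. The groups overlay each other for nearly every gene, and Rgs4, Rgs5 and Rgs7bp spread most; levels of different probe sets also reflect probe binding and do not rank the transcripts.

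Of the beta subunits, which form a stable pair with a gamma subunit, 3 of 5 were measured. Gnb1 levels were 12.72, 13.05 and 13.11 in young, from 12.79 to 13.08 in unimpaired and 12.73, 13.03 and 13.27 in impaired rats. Its 3 group means lay within 0.05 of one another, and the 95% interval of the difference between impaired and young rats ran from -0.15 to 0.15. Gnb2 averaged 11.35 ± 0.06 (SD), 11.31 ± 0.10 and 11.33 ± 0.13. Gnb5, the divergent beta subunit that pairs with RGS proteins of the R7 group instead of gamma subunits, had levels of 9.12, 9.32 and 9.47 in young, 9.26, 9.34 and 9.39 in unimpaired and 9.38, 9.43 and 9.51 in impaired rats. Each of the 7 impaired arrays lay above both the young mean and the unimpaired mean. The Gnb5 differences were 0.11 ± 0.04 (limma adjusted p = 0.293) and 0.10 ± 0.05 (limma adjusted p = 0.329), the first being the only member difference from young at an unadjusted p below 0.05 in impaired rats. With quantile normalization the second was 0.03.

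Gamma subunits carry the lipid anchor of the pair, and 8 of 11 were measured. Gng12, a widely expressed gamma subunit, had the smallest adjusted p of any member. Its levels were 8.41, 8.53 and 8.78 in young, 8.11, 8.35 and 8.39 in unimpaired and 8.21, 8.39 and 8.66 in impaired rats. Each unimpaired array lay below each young array, a separation shown by 0.949% of all probe sets in this contrast. No other member separated the groups of any contrast, as 0.316% of all probe sets did in impaired minus young, 1.05% in impaired minus unimpaired and 0.0857% with all aged rats against young. The difference was -0.26 ± 0.07 (limma adjusted p = 0.0935), a level 1.19 times lower, and it was -0.20 ± 0.06 for all aged rats (limma adjusted p = 0.123), below the young mean in 12 of 13 arrays. Neither passed. The other Gng12 probe set, with a mean of 4.79, gave 0.003 ± 0.061 in unimpaired minus young, so the larger value rests on 1 probe set.

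Gng2, a gamma subunit of brain, had levels of 9.43, 9.79 and 10.01 in young, 9.28, 9.64 and 9.86 in unimpaired and 9.71, 9.80 and 10.13 in impaired rats. All 7 impaired arrays exceeded the unimpaired mean although the ranges overlapped. The difference in impaired minus unimpaired was 0.22 ± 0.09 (limma adjusted p = 0.286). The other Gng2 probe set gave 0.24 ± 0.09 (limma adjusted p = 0.235), alike in size and sign. Gng10 gave -0.10 ± 0.04 in unimpaired minus young, at levels of 11.68, 11.77 and 11.86 against 11.80, 11.85 and 12.01 (limma adjusted p = 0.248).

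The remaining gamma subunits differed by less. Gng5 gave -0.12 ± 0.06 in unimpaired minus young (limma adjusted p = 0.333). Gng3, a neuronal gamma subunit, averaged 11.03 ± 0.13 (SD), 10.95 ± 0.15 and 11.05 ± 0.19 in young, unimpaired and impaired rats. Gng7, which pairs with Gnal in the striatum, averaged 8.57 ± 0.13, 8.58 ± 0.20 and 8.56 ± 0.09. Gng13 averaged 7.52 ± 0.13, 7.47 ± 0.09 and 7.46 ± 0.13. Gng8 sat just above the filter, with a mean of 4.31 over all arrays and levels from 4.19 to 4.57. In unimpaired rats 6 of the 8 gamma subunits lay below the young mean, with a median difference of -0.093, and in the same contrast 66% of all probe sets had a negative difference. With quantile normalization the gamma median was -0.037, and again 6 of 8 were negative.

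**Figure D3:**
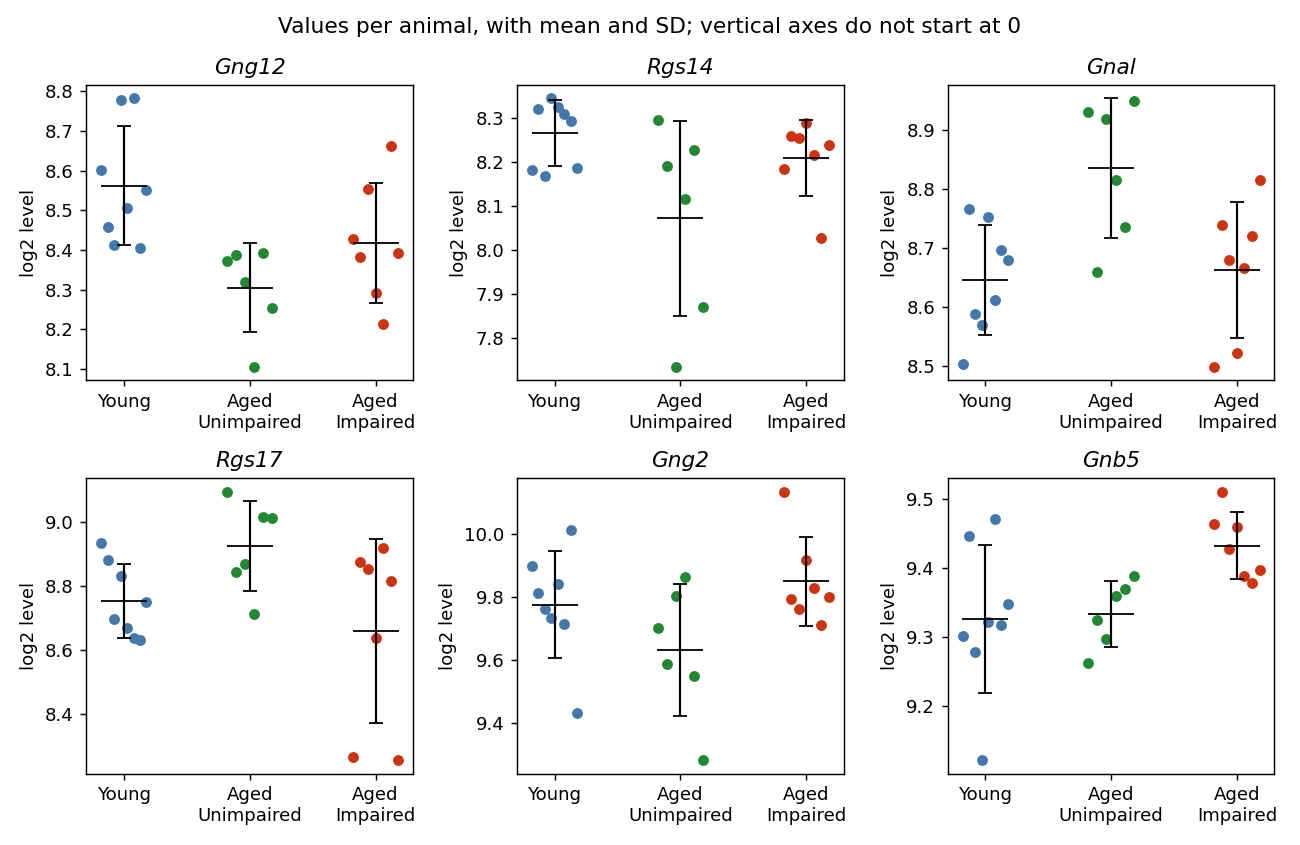
Log2 levels per animal (vertical axes, not starting at 0) of 6 genes with the smallest unadjusted p values, in 8 Young, 6 Aged Unimpaired and 7 Aged Impaired rats, with lines for the mean and bars for the SD. All unimpaired Gng12 values lie below the lowest young value of 8.41; the Rgs14 and Rgs17 panels each show a pair of arrays set apart, at 7.74 and 7.87 in unimpaired rats and at 8.26 and 8.27 in impaired rats.

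RGS proteins of the R4 group are small and act on inhibitory and Gq class alpha subunits; 4 of 8 were measured. Rgs4, a neuronal member, had levels of 6.23, 7.22 and 8.11 in young, 6.68, 6.83 and 7.02 in unimpaired and 6.62, 7.01 and 7.29 in impaired rats. The young rats alone spanned the values of both aged groups. The differences from young were -0.37 ± 0.20 in unimpaired (limma adjusted p = 0.362) and -0.18 ± 0.19 in impaired rats, the former the largest member difference by size. Rgs2, which acts mainly on Gq class subunits, had levels of 8.62, 8.64 and 8.94 in young, 8.41, 8.63 and 8.80 in unimpaired and 8.40, 8.64 and 8.78 in impaired rats. Its difference in all aged minus young was -0.08 ± 0.05 (limma adjusted p = 0.533), while its other probe set, with a mean of 5.88, gave -0.30 ± 0.10 (limma adjusted p = 0.169).

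Rgs5, a gene known as a marker of pericytes, was the measured gene closest to the filter, with a mean of 4.14 and levels of 3.85, 4.05 and 5.23 in young, 3.72, 4.07 and 4.50 in unimpaired and 3.57, 4.04 and 4.61 in impaired rats. The 4 measured markers of mural cells (pericytes and vascular smooth muscle) had a mean between 5.94 and 6.16 in young, 5.63 and 6.29 in unimpaired and 5.87 and 7.03 in impaired rats; their part in the Rgs5 values was not tested. Rgs3 averaged 6.36 ± 0.09 (SD), 6.45 ± 0.10 and 6.38 ± 0.11. Rgs4 and Rgs5 are adjacent in the RefSeq gene order of GRCr8, with 0 coding genes between them, the only neighbours in the family of which both were measured.

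Of the R7 group, whose proteins are stable only when bound to Gnb5, 3 genes were on the array and all were measured. Rgs7 had levels of 10.25, 10.47 and 10.67 in young, 10.22, 10.49 and 10.56 in unimpaired and 10.49, 10.55 and 10.64 in impaired rats. All 7 impaired values exceeded the young mean, as for Gnb5, but lay inside the young range. The Rgs7 difference was 0.11 ± 0.06 from young (limma adjusted p = 0.465) and 0.12 ± 0.06 from unimpaired rats (limma adjusted p = 0.405), the latter 0.052 with quantile normalization and 0.073 without Unimpaired 4. Rgs6 averaged 5.64 ± 0.25 (SD), 5.67 ± 0.37 and 5.64 ± 0.09, and Rgs9, the striatal and retinal member, 5.47 ± 0.03, 5.49 ± 0.08 and 5.48 ± 0.01. Rgs7bp, which anchors these complexes to the membrane, had levels of 5.93, 6.46 and 6.77 in young, 5.28, 6.14 and 6.89 in unimpaired and 5.92, 6.32 and 6.86 in impaired rats. Its difference in unimpaired minus young was -0.29 ± 0.20 (limma adjusted p = 0.465), and it was -0.13 without Unimpaired 7 and -0.45 without Unimpaired 8.

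Because Gnb5 and the R7 proteins form 1 complex, 5 relations among Gnb5, Rgs6, Rgs7, Rgs9 and Rgs7bp were computed over 21 arrays after removal of group means. Gnb5 and Rgs7 gave a Pearson r of 0.61 (permutation p = 0.0118, adjusted p = 0.0591) and a Spearman rank correlation of 0.41 (permutation p = 0.0856, adjusted p = 0.428). Without the arrays farthest from the median of Gnb5, Young 3 and Young 5, r was 0.28. Leaving out extremes of Gnb5 narrows its range, which can lower r by itself. Within groups r was 0.91 in young, 0.12 in unimpaired and -0.10 in impaired rats. A high r was thus found only in the young group, and r in young rats without those arrays was not computed. The other 4 relations had r between -0.12 and 0.18, with adjusted permutation p of 0.919 to 0.948. Among all 496 pairs of the 32 genes, taken the same way, Gnb5 with Rgs7 ranked 9 by r. The highest r, 0.74, was that of Gnas with Gnb2.

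The R12 group, with Rgs10, Rgs12 and Rgs14, acts on inhibitory alpha subunits and was measured in full. Rgs14, a scaffold best known from pyramidal neurons of the hippocampal CA2 field, had levels of 8.17, 8.30 and 8.34 in young, 7.74, 8.15 and 8.30 in unimpaired and 8.03, 8.24 and 8.29 in impaired rats. Unimpaired replicates 4 and 8, at 7.74 and 7.87, lay below the other arrays, and the rest of the group overlapped the young range. The difference in unimpaired minus young was -0.19 ± 0.07 (limma adjusted p = 0.177), and it was -0.13 ± 0.06 without replicate 4. The pyramidal neuron markers, not a list restricted to CA2, had a lower median in the same group, as given above. So did every other marker list except that of microglia and macrophages. Over all probe sets 66% had a negative difference in this contrast. The part of any of these in the Rgs14 values was not tested. Rgs10, also known from microglia, averaged 12.06 ± 0.06 (SD), 12.15 ± 0.09 and 12.10 ± 0.13, and Rgs12 7.01 ± 0.25, 6.98 ± 0.17 and 7.13 ± 0.09. The mean of 9 measured microglia and macrophage markers had medians of 8.07, 8.29 and 8.30 in the same order.

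Rgs17, of the group of RGS proteins that act on Gnaz, was 1 of 2 such genes measured. Its levels were 8.63, 8.72 and 8.93 in young, 8.71, 8.94 and 9.09 in unimpaired and 8.26, 8.81 and 8.92 in impaired rats. Impaired replicates 1 and 8, at 8.27 and 8.26, lay below all other arrays. The difference in impaired minus unimpaired was -0.26 ± 0.10 (limma adjusted p = 0.251), with 7 of 7 impaired arrays below the unimpaired mean, and it was -0.20 without replicate 1 and -0.20 without replicate 8. The other Rgs17 probe sets gave -0.12 ± 0.06 and -0.03 ± 0.06, the same sign at a smaller size.

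Probe sets of 1 gene agreed only in part. Of the 32 genes, 10 had more than 1 measured probe set, which gave 12 pairs. The sign of the difference was the same in 9 pairs in impaired minus young, 7 in unimpaired minus young, 8 in impaired minus unimpaired and 7 with all aged rats against young. Of the genes with the smallest p values, Gng2 and Rgs17 kept their sign in impaired minus unimpaired, while Gng12 and Gnal did not keep theirs in unimpaired minus young. No measured probe set of the family was called.

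**Figure D4:**
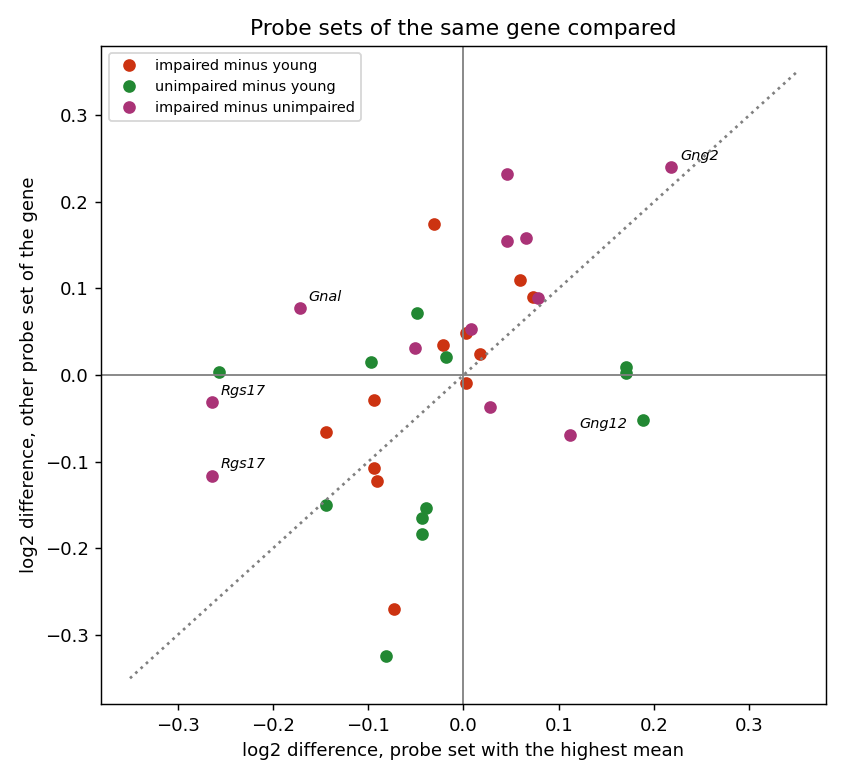
Log2 difference of the probe set with the highest mean (horizontal axis) against that of another measured probe set of the same gene (vertical axis) for 12 pairs from 10 genes, coloured by contrast, with the dotted line marking equal values. Gng2 lies near the line in impaired minus unimpaired, at 0.22 and 0.24, whereas Gng12 and Gnal have opposite signs there.

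Between animals of 1 group the genes differed widely in spread. Rgs5, Rgs4 and Rgs7bp had within-group SDs of 0.42, 0.39 and 0.39, which placed them at percentiles 97.2, 96.7 and 96.5 of all probe sets tested. Rgs9, Gng8 and Gng10 had SDs of 0.046, 0.066 and 0.071, at percentiles 1.61, 5.56 and 7.92. Gnaq, Gng8, Rgs3 and Rgs9 had at least 16 of 21 arrays within 0.05 of their median, as 6.86% of all probe sets did.

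The 17 genes not counted as measured were mostly at low signal on all arrays. Gna14 exceeded a level of 4 on 3 arrays and Rgs8 on 2, both of the latter from unimpaired rats, with a highest value of 4.42. Their means were 3.69 and 3.70, just outside the filter, while Rgs5 and Gng8 at 4.14 and 4.31 were just inside. The other 15 exceeded it on 0 arrays. They include the transducin genes Gnat1, Gnat2, Gngt1 and Gngt2 of photoreceptors, Gnat3 of taste cells, Gna15 and Rgs18 of blood cells and Gnb3. The rest are Gnb1l, Gnb4, Gng11, Rgs1, Rgs16, Rgs19 and Rgs22. A level below 4 does not show that a transcript was absent.

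Genes that act with the family were read from 4 lists, of which 45 of 60 genes on the array were measured. Of the receptor kinases and arrestins, which switch off activated receptors, 4 of 7 were measured. Of these 4, and of 12 measured regulators other than RGS proteins, 0 were called in each contrast, near the background of 0.514% of all probe sets for impaired against young rats, 1.13% for unimpaired and 1.11% for all aged rats against young, and 0% between the aged groups. Arrb1 and Arrb2, the arrestins, differed from young by 0.07 ± 0.05 and -0.10 ± 0.07 in unimpaired rats, or by 0.044 and -0.053 without Unimpaired 4. Ric8a, a chaperone of alpha subunits, and Pdcl, a chaperone of beta and gamma pairs, gave -0.23 ± 0.08 (limma adjusted p = 0.161) and -0.27 ± 0.09 (adjusted p = 0.137) in unimpaired minus young.

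Among 13 measured effectors 9 had a negative and 4 a positive difference in unimpaired minus young. Of the 13, 2 were called lower and 0 higher, where 0.936% of all probe sets were called lower and 0.198% higher. The gene lists were chosen with earlier results of these data known, so these shares are not an independent comparison. Adcy5, the adenylate cyclase driven by Gnal in the striatum, had levels of 6.80, 6.91 and 7.02 in young, 6.38, 6.56 and 6.82 in unimpaired and 6.79, 6.86 and 7.10 in impaired rats. The unimpaired range touched the other groups only at its upper end. Adcy5 fell by 0.34 ± 0.07 in unimpaired rats (limma adjusted p = 0.0188), while the difference of impaired from unimpaired rats was 0.36 ± 0.07 with an adjusted p of 0.129. Rap1gap, which inactivates the small GTPase Rap1 and binds Gnaz and other inhibitory alpha subunits, had levels of 9.68, 9.87 and 9.99 in young, 9.43, 9.60 and 9.66 in unimpaired and 9.51, 9.63 and 9.88 in impaired rats. It fell by 0.27 ± 0.06 in unimpaired rats (adjusted p = 0.0381), without overlap, and by 0.23 ± 0.05 in all aged rats (adjusted p = 0.0296), in which it was the only effector called and 0.705% of all probe sets were called lower.

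Of 16 measured genes listed for cyclic AMP and protein kinase A, 1, Rapgef4, was called, in unimpaired minus young, against 1.13% of all probe sets. Rapgef4, an exchange factor for Rap proteins that cyclic AMP activates, had levels of 11.38, 11.47 and 11.75 in young, 11.05, 11.28 and 11.34 in unimpaired and 11.41, 11.47 and 11.65 in impaired rats. It fell by 0.27 ± 0.06 in unimpaired rats (limma adjusted p = 0.0416), below all young values. The calls were not equally stable. Adcy5 was called in 30 of 31 alternative settings and lost in the fit with replicate numbers as a block (limma adjusted p = 0.130). Rapgef4 was called in 17 of 31, and leaving out Unimpaired 1, 3, 4 or 8 or Young 2, 5, 6 or 9 took its adjusted p to between 0.0546 and 0.110. Rap1gap in unimpaired rats was called in 14 of 31, and leaving out Unimpaired 1, 3, 4, 6 or 8 or Young 1, 3, 5, 6 or 9 took its adjusted p to between 0.0514 and 0.0867. In all aged rats Rap1gap was called in 22 of 30, and leaving out Unimpaired 3 or Young 1, 3, 6 or 9 took its adjusted p to between 0.0503 and 0.0693. With an array left out the differences stayed between -0.29 and -0.21 for both genes.

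Other settings ended the Rap1gap and Rapgef4 calls as well. With replicate numbers as a block the limma adjusted p was 0.195 for Rapgef4, 0.250 for Rap1gap in unimpaired rats and 0.212 for Rap1gap in all aged rats. Without the 4 arrays highest in meningeal markers it was 0.0868, 0.0560 and 0.0563 in the same order. With quantile normalization the calls in unimpaired rats were lost at 0.120 for Rapgef4 and 0.105 for Rap1gap, and with median centring that of Rap1gap at 0.0532. Both calls in unimpaired rats were also lost without a level filter, with array weights and when only the arrays of the groups compared were fitted, and the Rap1gap call in all aged rats was lost without a level filter. Every marker list except that of microglia and macrophages also had a lower median in unimpaired than in young rats. Over all probe sets 66% had a negative difference in this contrast. The part of either in these calls was not tested.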

How the data were processed

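Total RNA from the dentate gyrus of 24 labelled rats was measured. The authors deposited log2 probe set levels. The submitters' processing notes name GCRMA as the tool, and its version is not given in the sources used here. Per the labels, quality control led the submitters to leave out 3 arrays, 1 per group, and the other 21 were used. The record of Young replicate 9 stands between unimpaired ones, and the array was grouped by its label. The labels give no date or batch, and the number of arrays limits the precision.

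Of 31099 probe sets, 57 controls were left out, and those above log2 4 on at least 6 arrays were kept, 15177 in all. The 3 groups entered 1 limma fit (version 3.58.1, R 4.3.3, default eBayes, 18 residual degrees of freedom), with Benjamini and Hochberg adjustment over all 15177. The scripts were tested on simulated data. Each aged group was set against young and against the other, and the average of both aged means was set against young. Values are log2 differences ± the moderated SE unless SD is stated. Counts of arrays above or below a mean refer to the mean of the group subtracted.

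All 49 symbols matched RefSeq by gene identifier. A further 2 probe sets annotated to both Gnai1 and Gnai3 were not used. Members, gene lists and tests were chosen with earlier results of these data known. Named members were the 3 with the smallest p per contrast and direction, the highest mean of each subfamily, and those nearest the level filter, 18 with full settings in all; of the pathway lists, the genes called or, failing that, the 2 with the smallest p. Gnai1, Rgs4 and genes named for their spread were chosen after their values were seen. Relations between complex members used 100000 permutations and were added after seeing the data, as was the F test. Alternatives covered the filter, the scaling, the eBayes settings, array weights, the replicate block, the probe set rule, only the groups compared, each array left out and 4 arrays high in meningeal markers left out.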

Additional observations from a re-analysis of the deposited data

Results flagged for a closer look

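In each group the array at either end was compared with its group by the Dixon test at the 95% level, which flags about 1 in 20 groups by chance. The share flagged over all probe sets was not computed, so the count among the 32 genes cannot be set against the rest of the array. Of 96 groups of values of the 32 genes, 13 held an array set apart. Among alpha subunits these were Gnai1 in Unimpaired 1 at 7.91, against 8.26 to 8.40 in the rest of the group, Gnao1 in Unimpaired 6 at 9.70, Gnaq in Young 5 at 5.08 and Gnas in Unimpaired 8 at 13.25, against 13.44 to 13.51. Among beta and gamma subunits they were Gnb1 in Young 5 at 12.72, against 12.98 to 13.11, Gng13 in Impaired 8 at 7.19, Gng8 in Young 6 at 4.19 and Gng8 in Impaired 7 at 4.57. Among RGS genes they were Rgs14 in Impaired 7 at 8.03, Rgs2 in Young 9 at 8.94, Rgs3 in Young 9 at 6.14, Rgs3 in Impaired 3 at 6.17 and Rgs9 in Young 4 at 5.39. Young 5, Young 9 and Impaired 7 each appear with 2 genes. Gnaq, Gng8, Rgs3 and Rgs9, which hold 6 of the 13, are the genes with at least 16 of 21 arrays within 0.05 of their median.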

How the results depend on the processing

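The count of members called was 0 in each of the 4 contrasts under every alternative run, and the smallest adjusted p of a named member was 0.0749 over 2254 refitted differences. At an unadjusted p below 0.05 the count of members ranged from 1 to 4 in impaired minus young, 1 to 6 in unimpaired minus young, 1 to 6 in impaired minus unimpaired and 1 to 4 in all aged minus young. Of the refitted differences 74 changed sign, 4 of them among the 440 whose main difference exceeded 2 SE. Leaving out each array in turn moved the Gng12 difference in unimpaired minus young between -0.28 and -0.22 and the Rgs14 difference between -0.24 and -0.13.

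Replicate numbers were not taken to pair the arrays, because the labels name no shared source and not every same-numbered pair had a correlation of deviations over 0.1: these ran from -0.118 to 0.20, and 4 of 17 exceeded 0.1. As a hint from the data and not the design, 7 of 19 arrays correlated best with their own number. With the replicate block 0 members were called, and the calls over all probe sets were 114 in impaired minus young, 9 in unimpaired minus young and 76 in all aged minus young, against 78, 172 and 168. Without a level filter they were 33, 67 and 90, with quantile normalization 112, 125 and 232, and without the 4 arrays highest in meningeal markers 29, 95 and 86. Leaving out Impaired 2, 3 or 7, Unimpaired 3 or Young 3, 5, 6, 7 or 9 moved the count in impaired minus young by over 1.5 times, leaving out Unimpaired 1, 3, 4, 6 or 8 or Young 6 or 9 that in unimpaired minus young, and leaving out Young 6 or 9 that in all aged minus young. The cause was not tested.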
